A study of Homo sapiens with 4 samples.

Results

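Interferon-stimulated genes were examined in A549, a human lung adenocarcinoma cell line, with and without knockdown of RBM4, an RNA-binding protein that acts in splicing and translation. The members were 45 named genes of the interferon response, listed by symbol, and all 45 were listed in both deposited tables, out of 19732 gene symbols in the A549 table. The series holds 4 samples in 4 groups, namely a control and an RBM4 knockdown of A549 and of H1299, another lung cancer line, with 1 library per group. Only the A549 pair was analysed here, because the 3 value columns of the H1299 table carry names that match no sample label. Of the 2 A549 value columns, the one named only for the line was taken as control and the one with a numeric suffix as knockdown, and every direction given here rests on that reading. The sample titles mark the knockdowns with "sh", but the sources used here do not give the reagent or say whether the cells were a pool or a clone, and no interferon or virus treatment is named in the labels.

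Type I interferons signal through the receptor pair IFNAR1 and IFNAR2 and the kinases JAK1 and TYK2 to a complex that holds STAT2 and IRF9 and switches on genes that carry an interferon-stimulated response element in their promoters. The products of these genes sense viral RNA, block translation, degrade RNA, trap virus particles or tag proteins with the ubiquitin-like protein ISG15. Many of them are kept at a low level in unstimulated epithelial cells, and some also belong to the inflammatory programme of senescent cells.

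Values are FPKM (fragments per kilobase of transcript, scaled to the mapped fragments of the library), summed over the listed transcripts of a gene, and are relative to the rest of their library. The sequencing depth is unknown. A difference is the log2 ratio of knockdown to control after 1 was added to each FPKM value, which understates differences of genes near 0. A gene counts as measured at 1 FPKM or more in either library, and as higher or lower at 2-fold or more, a difference of at least 1 or at most -1. With 1 library per group no value has a replicate error and no test was possible, so each difference compares 2 libraries and not 2 conditions. In such bulk RNA, fewer cells expressing a gene and less RNA per cell cannot be told apart. RBM4 itself had 59.4 FPKM in control cells and 30.6 FPKM in knockdown cells, 51.5% of the control, a difference of -0.93 that was short of 2-fold.

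As a group, the interferon-stimulated genes reached 10 FPKM less often than all symbols, and more of them were higher than lower in the knockdown library. In control cells 22.2% of the members reached 10 FPKM, beside 36.0% of all symbols, and in knockdown cells 26.7%, beside 35.7%. The members reached 1 FPKM more often, at 68.9% beside 59.3% in control cells and 75.6% beside 61.2% in knockdown cells. Their summed level was 296.7 FPKM in control cells and 398.6 FPKM in knockdown cells, of which LGALS3BP alone held 29.1 and 66.9 FPKM. The total over all genes was 671529 FPKM in control cells and 622366 FPKM in knockdown cells. OASL, IFITM3, ISG15, LGALS3BP and SAMD9 were higher by 2-fold and no member was lower by 2-fold. Of the 45 members, 35 were measured and 10 were below 1 FPKM in both libraries. The 5 higher members were 14.3% of the measured ones, beside 4.96% of all 12230 measured genes. The count of 0 lower members stands beside 2.25% of all genes, and in either direction 7.21% of all genes passed 2-fold.

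The median difference of the measured members was 0.42, beside -0.04 for all measured genes, and 27 of them (77.1%) lay above 0, beside 46.6% of all genes. Over all 45 members, with no minimum, the median was 0.30. The 4 members OASL, MX1, TRIM22 and GBP2 reached 1 FPKM only in the knockdown library and so had to lie above 0, and IFIH1 reached it only in the control and had to lie below. Among the 30 members at 1 FPKM or more in both libraries, 23 lay above 0 and the median was 0.41. Of all 11539 genes that met this condition, 5176 lay above 0 and the median was -0.05. Higher by 2-fold were 4 of these members (13.3%), beside 3.71% of these genes. The members just inside and just outside the minimum were TRIM22, with 0.62 FPKM in control cells and 1.08 FPKM in knockdown cells, and IFITM1, with 0.17 and 0.58 FPKM.

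**Figure D1:**
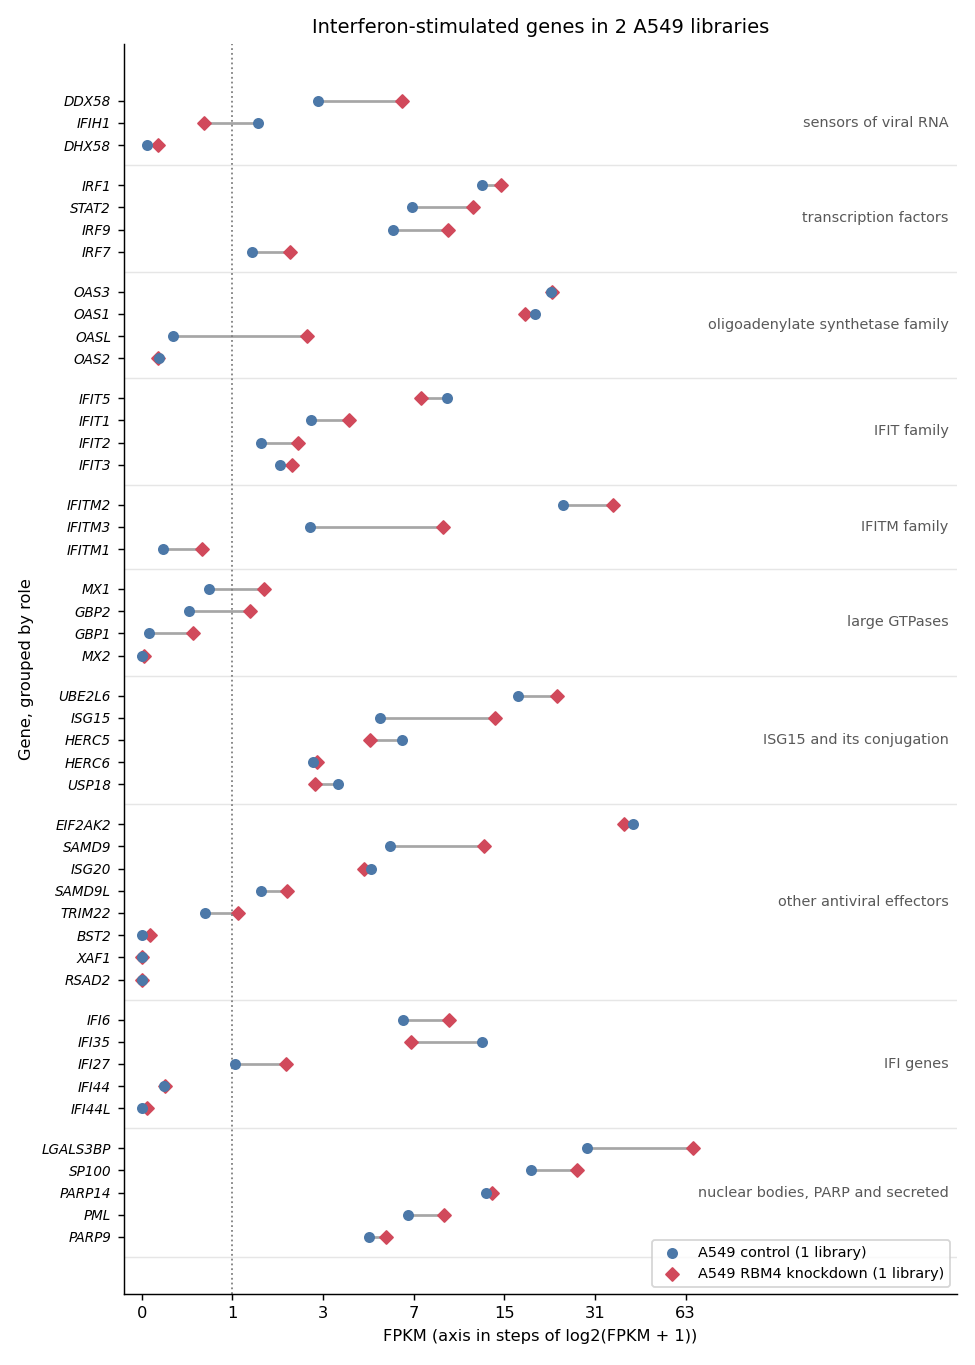
Level of each of the 45 genes in FPKM (horizontal axis, spaced by log2 of FPKM plus 1) in the A549 control library (circles) and the A549 RBM4 knockdown library (diamonds), grouped by role. The dotted line marks the minimum of 1 FPKM. LGALS3BP is the most abundant of the 45 in the knockdown library at 66.9 FPKM, and RSAD2 and XAF1 are listed at 0 in both libraries.

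Among the higher members, ISG15, the ubiquitin-like modifier (ENSG00000187608, chromosome 1, 1001138 to 1014540 on the plus strand of hg38), measured 5.17 FPKM in control cells and 13.9 FPKM in knockdown cells. The difference was 1.27, and 2.81% of all measured genes had a higher one. A single transcript, ENST00000379389, carried the whole value in both libraries, and the other 2 listed transcripts were at 0.

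LGALS3BP, a secreted glycoprotein that binds galectins (ENSG00000108679, chromosome 17, 78971238 to 78980109, minus strand), had 29.1 FPKM in control cells and 66.9 FPKM in knockdown cells, a difference of 1.17. Its main transcript, ENST00000262776, had 27.7 FPKM in control cells and 60.2 FPKM in knockdown cells, 95.3% and 90.1% of the gene's value. LGALS3BP was the most abundant of the higher members in both libraries, and the only member still higher by 2-fold with a pseudocount of 5.

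IFITM3, a membrane protein that blocks virus entry (ENSG00000142089, chromosome 11, 319669 to 327537, minus strand), had 2.63 FPKM in control cells and 9.0 FPKM in knockdown cells, a difference of 1.46. All of it was assigned to 1 transcript, ENST00000399808. Its value is uncertain, because 36.6% of the 50-base stretches of its transcripts also occur in transcripts of other genes, mainly an overlapping gene on the other strand and IFITM2, and how such reads were shared is not known.

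SAMD9, an antiviral and growth-restraining protein (ENSG00000205413, chromosome 7, 93099513 to 93118023, minus strand), had 5.68 FPKM in control cells and 12.7 FPKM in knockdown cells, a difference of 1.03 that was just past 2-fold. Its main transcript, ENST00000379958, had 4.90 and 11.6 FPKM. With a pseudocount of 5 the difference of SAMD9 was 0.72, of ISG15 0.89 and of IFITM3 0.88, all short of 2-fold.

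OASL, a member of the oligoadenylate synthetase family that lacks synthetase activity (ENSG00000135114, chromosome 12, 121019111 to 121039242, minus strand), had 0.27 FPKM in control cells and 2.53 FPKM in knockdown cells, the highest difference of any member at 1.48. Of its 4 listed transcripts, 3 were above 0 and each of these had more FPKM after knockdown. The largest share moved from ENST00000257570, with 69.9% of the gene in control and 39.0% in knockdown cells, to ENST00000620239, with 11.7% and 50.2%. OASL is low in both libraries and its difference depends on the scale, at 2.84 with a pseudocount of 0.1 and 0.52 with a pseudocount of 5. It was short of 2-fold, at 0.94, when only the highest transcript was taken.

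**Figure D2:**
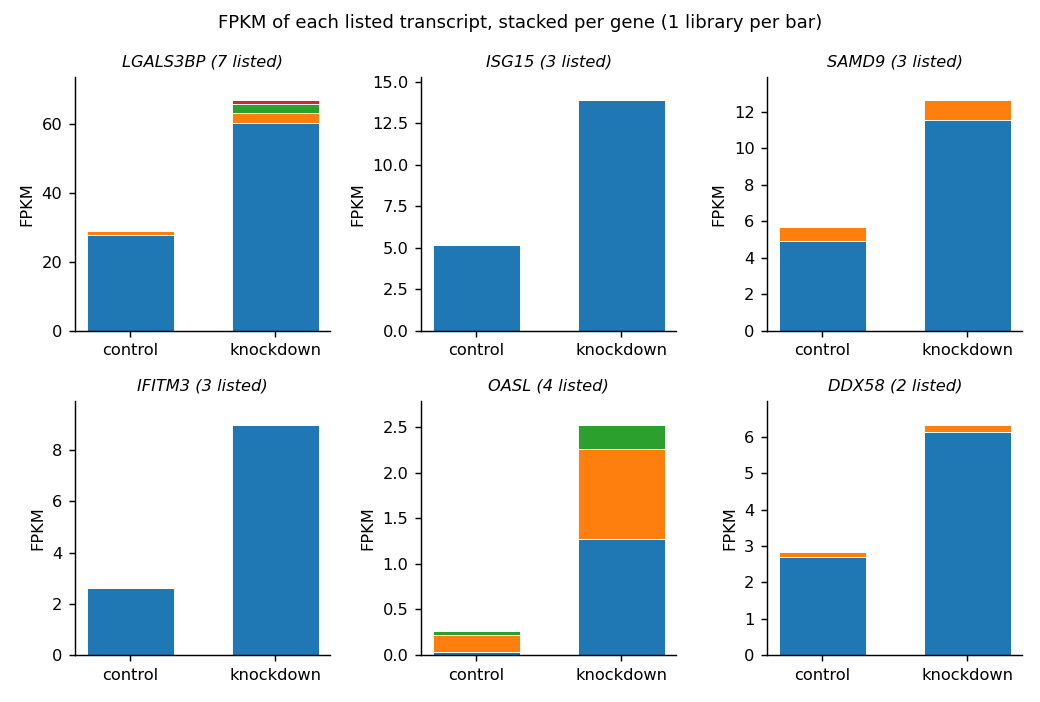
FPKM of each listed transcript, stacked per gene, for the 5 higher members and DDX58 in the A549 control and knockdown libraries (1 library per bar, colours separate transcripts within a gene). One transcript makes up all of ISG15 and IFITM3, whereas OASL is split over 3 transcripts.

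The promoters of the higher members are shown because the response element that defines the pathway can be looked for in them. A RefSeq promoter table (build GRCh38.p14) held 34 of the 45 members, and OASL was not among them. In the 250 bases before the start, a core of the interferon-stimulated response element, GAAANNGAA on either strand, was present for 22 of the 34 members (64.7%), beside 8.41% of all 27305 genes of the table, counting a gene when any of its listed windows held it. A gamma-activated sequence, TTCNNNGAA, which reads the same on both strands, was present for 9 of the 34 members (26.5%), beside 8.09% of all genes. The core was present in the windows of ISG15, IFITM3, LGALS3BP and SAMD9, and in that of IFIT1, a textbook interferon target that was short of 2-fold here. Capitals mark each match to the core, and the sequences run 5′ to 3′ towards the start site.
ISG15 (chr1:1013247-1013496, plus strand): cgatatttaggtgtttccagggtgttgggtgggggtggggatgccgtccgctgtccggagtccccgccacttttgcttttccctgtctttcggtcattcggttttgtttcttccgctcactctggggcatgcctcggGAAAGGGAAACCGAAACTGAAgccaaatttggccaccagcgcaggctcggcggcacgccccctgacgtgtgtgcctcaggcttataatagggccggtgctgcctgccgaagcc
IFITM3 (chr11:320861-321110, minus strand): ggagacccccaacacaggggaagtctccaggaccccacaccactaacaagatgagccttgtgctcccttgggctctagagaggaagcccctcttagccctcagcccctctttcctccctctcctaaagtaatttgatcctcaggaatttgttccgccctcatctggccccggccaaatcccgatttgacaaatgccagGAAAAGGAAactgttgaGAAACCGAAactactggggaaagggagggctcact
LGALS3BP (chr17:78979924-78980173, minus strand): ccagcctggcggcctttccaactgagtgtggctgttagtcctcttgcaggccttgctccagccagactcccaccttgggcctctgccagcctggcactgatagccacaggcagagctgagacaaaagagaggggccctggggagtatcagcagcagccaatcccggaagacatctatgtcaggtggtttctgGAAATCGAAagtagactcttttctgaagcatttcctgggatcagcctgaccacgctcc
SAMD9 (chr7:93117980-93118229, minus strand): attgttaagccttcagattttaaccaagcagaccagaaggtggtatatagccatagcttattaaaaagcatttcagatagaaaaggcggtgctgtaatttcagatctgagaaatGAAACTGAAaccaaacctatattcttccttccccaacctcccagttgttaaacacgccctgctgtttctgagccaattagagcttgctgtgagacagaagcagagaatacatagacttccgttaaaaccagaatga
IFIT1 (chr10:89392373-89392622, plus strand): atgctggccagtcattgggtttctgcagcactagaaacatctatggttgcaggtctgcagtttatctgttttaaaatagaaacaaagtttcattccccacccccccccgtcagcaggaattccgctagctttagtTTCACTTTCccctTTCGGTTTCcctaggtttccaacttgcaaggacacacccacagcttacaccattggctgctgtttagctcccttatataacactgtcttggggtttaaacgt
ISG15 holds 3 overlapping matches that span bases -113 to -93 from the start, IFITM3 holds 2 at -52 to -44 and -35 to -27, LGALS3BP holds 1 at -58 to -50 and SAMD9 holds 1 at -136 to -128. IFIT1 holds 2 matches on the other strand, at -115 to -107 and -102 to -94.

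Differences of members with and without the core overlapped. Of the measured members with a promoter entry, 16 held the core and 11 did not. The median difference was 0.30 in both sets. The 4 higher members with an entry were all among the 16, whose differences ran from -0.60 (IFIH1, with 4 matches) to 1.46. Those of the 11 without the core ran from -0.78 (IFI35) to 0.93 (DDX58). A match describes these letters only and is not a bound site.

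Viral RNA sensors differed in opposite directions. DDX58, which encodes RIG-I, had 2.84 FPKM in control cells and 6.34 FPKM in knockdown cells, a difference of 0.93 that was the closest below 2-fold. It passed 2-fold after both libraries were rescaled to the same total (1.03), with mitochondrial genes left out (1.08) and with a pseudocount of 0.1 (1.13). IFIH1, which encodes the sensor MDA5, had 1.43 and 0.61 FPKM (-0.60), and was lower by 2-fold, at -1.12, with a pseudocount of 0.1. Their regulator DHX58 was near 0, at 0.04 and 0.13 FPKM.

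The transcription factors that carry the response all lay above 0 and short of 2-fold. STAT2 had 6.87 FPKM in control cells and 11.6 FPKM in knockdown cells (0.68), and IRF9, the DNA-binding partner of STAT2, had 5.83 and 9.42 FPKM (0.61). IRF7, the factor that amplifies interferon production, had 1.33 and 2.10 FPKM (0.42), and IRF1, which responds to type II interferon, had 12.4 and 14.5 FPKM (0.21). In STAT2 the transcript ENST00000557235 went from 24.3% to 38.9% of the gene. IRF9 is uncertain, since 82.7% of the 50-base stretches of its transcripts are shared with the read-through gene AL136295.5 on the same strand.

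The oligoadenylate synthetases, which activate RNA degradation, were near 0 difference apart from OASL. OAS3 had 21.9 FPKM in control cells and 22.1 FPKM in knockdown cells (0.01), and its neighbour OAS1 had 19.2 and 17.7 FPKM (-0.11). OAS1 lay above 0, at 0.045, with mitochondrial genes left out, and at 0.028 with the highest transcript alone. OAS2, of the same cluster on chromosome 12, was near 0, at 0.14 and 0.13 FPKM.

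Members of the IFIT family, which bind viral RNA and hinder its translation, lay in 1 cluster on chromosome 10 and were all short of 2-fold. IFIT1 had 2.64 FPKM in control cells and 3.87 FPKM in knockdown cells (0.42), and IFIT2 had 1.48 and 2.31 FPKM (0.42). IFIT3 had 1.88 and 2.14 FPKM (0.12, and -0.014 with the highest transcript alone). IFIT5, the most abundant of the 4, had 9.33 and 7.48 FPKM (-0.28). In the IFITM cluster on chromosome 11, IFITM2 was more abundant than IFITM3, with 24.0 and 35.8 FPKM (0.56). Transcripts of IFITM1 and IFITM2 overlap on the same strand, and 32.9% and 35.5% of their 50-base stretches are shared with other genes, so the division of FPKM among the 3 genes is uncertain.

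The large GTPases were low. MX1, which blocks virus replication, had 0.67 FPKM in control cells and 1.54 FPKM in knockdown cells (0.60), and its neighbour MX2 was at 0 and 0.02 FPKM. GBP2 had 0.43 and 1.28 FPKM (0.67), and GBP1 had 0.05 and 0.48 FPKM and was not measured. All 4 had more FPKM after knockdown, but MX1 and GBP2 reached 1 FPKM only in the knockdown library, and GBP1 and MX2 in neither. None of the measured ones passed 2-fold on this scale. With a pseudocount of 0.1, MX1 (1.08) and GBP2 (1.38) did.

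The enzymes that attach or remove ISG15 were short of 2-fold, on either side of 0. UBE2L6, the conjugating enzyme, had 16.8 FPKM in control cells and 22.9 FPKM in knockdown cells (0.42). HERC5, the main ligase, had 6.30 and 4.71 FPKM (-0.35), and its neighbour HERC6 had 2.70 and 2.82 FPKM (0.05, and -0.20 with the highest transcript alone). USP18, which removes ISG15 and restrains the receptor, had 3.50 and 2.77 FPKM (-0.25), and 23.4% of its 50-base stretches are shared with other genes such as USP41.

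Other antiviral effectors ranged from abundant to listed at 0. EIF2AK2, the kinase PKR that halts translation, had 41.9 FPKM in control cells and 39.0 FPKM in knockdown cells (-0.10). The nuclease gene ISG20 had 4.79 and 4.47 FPKM (-0.08). Both directions depend on the scaling: EIF2AK2 lay at 0.0053 and ISG20 at 0.0079 after rescaling to the same total. SAMD9L, the neighbour and paralog of SAMD9, had 1.48 and 2.04 FPKM (0.30). TRIM22 had a difference of 0.36. BST2, which tethers budding viruses, was at 0 and 0.07 FPKM, and RSAD2, which encodes viperin, and the pro-apoptotic gene XAF1 were listed at 0 in both libraries.

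Within the IFI genes the directions were mixed. IFI6 had 6.35 FPKM in control cells and 9.44 FPKM in knockdown cells (0.51), and IFI27 had 1.04 and 2.01 FPKM (0.56). IFI35 had 12.5 and 6.86 FPKM, the lowest difference of any member at -0.78, and 4.72% of all measured genes had a lower one. One of its 2 transcripts, ENST00000415816, went from 4.33 to 0.58 FPKM, and the other, ENST00000438323, from 8.17 to 6.28 FPKM. IFI35 was at -0.33 with the highest transcript alone. IFI44, at 0.18 and 0.19 FPKM, and IFI44L, at 0 and 0.04 FPKM, were not measured.

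None of the nuclear body components or interferon-inducible PARP genes passed 2-fold. SP100 had 18.6 FPKM in control cells and 26.8 FPKM in knockdown cells (0.50), and PML, the scaffold of these bodies, had 6.65 and 9.10 FPKM (0.40). PARP14 had 13.0 and 13.5 FPKM (0.06), and PARP9 had 4.69 and 5.48 FPKM (0.19). SP100 shares exons with the pseudogene HMGB1P3 on the same strand.

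**Figure D3:**
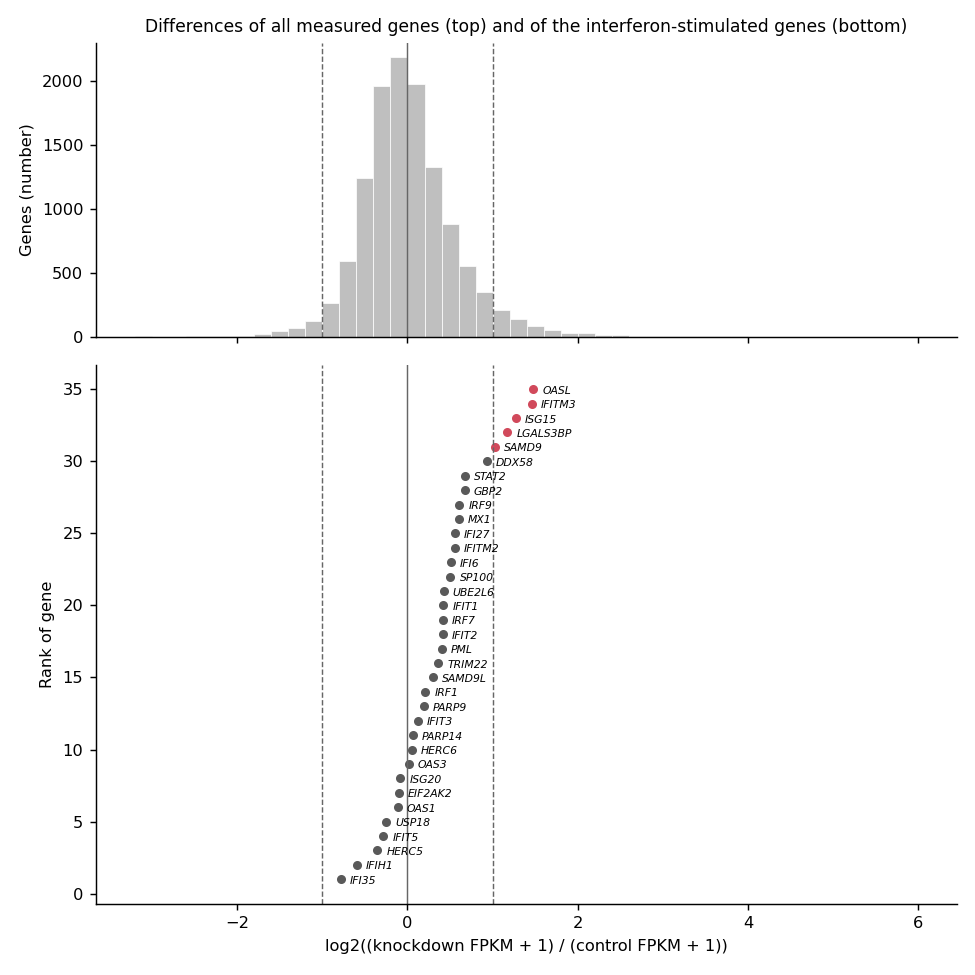
Number of all 12230 measured genes by log2 difference, knockdown over control (top, bins of 0.2), and the same difference for the 35 measured interferon-stimulated genes in rank order (bottom). Dashed lines mark 2-fold. The 5 genes past the right line are SAMD9, LGALS3BP, ISG15, IFITM3 and OASL, and none lies past the left line.

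Beyond the 45 genes, 118 further genes of the pathway were described in 6 lists, and of 78 measured, 3 (3.85%) were higher, beside 4.96% of all measured genes, and none was lower by 2-fold. Their median difference was 0.02. The genes for the interferons themselves were near 0, with 19 of 21 listed at 0 in both libraries, among them IFNB1, IFNG and IFNL1. IFNE, an epithelial type I interferon, was the only measured one, at 1.92 and 2.83 FPKM (0.39), and IFNK was at 0 and 0.06 FPKM.

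The receptor and kinase genes were present at moderate levels, with 11 of 11 measured and none past 2-fold. Their median was -0.18, with 4 above 0 and 7 below. IFNAR1 had 20.1 FPKM in control cells and 24.0 FPKM in knockdown cells (0.24), and IFNAR2 had 24.3 and 17.0 FPKM (-0.49). JAK1 had 95.9 and 104.4 FPKM (0.12), and TYK2 had 20.7 and 17.5 FPKM (-0.23).

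Genes that sense nucleic acids and lead to interferon production had a median of 0.03 over 11 measured of 14, with none past 2-fold. The adaptor gene MAVS, which acts downstream of RIG-I and MDA5, had 25.2 and 25.7 FPKM (0.03), and IRF3 had 40.2 and 35.3 FPKM (-0.18). MB21D1, which encodes the DNA sensor cGAS, had 6.71 and 5.01 FPKM (-0.36), and its partner TMEM173, which encodes STING, was low, at 0.39 and 1.18 FPKM (0.65). Negative regulators had a median of -0.20 over 11 measured of 12, with none past 2-fold. SOCS1, a feedback inhibitor of the kinases, had 0.62 and 1.17 FPKM (0.43). Like TMEM173, it reached 1 FPKM only in the knockdown library and so had to lie above 0. The other IRF genes had a median of -0.02 over 6 measured of 9.

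Of 53 other interferon-inducible genes, 40 were measured, 3 (7.5%) were higher, beside 4.96% of all measured genes, none was lower, and the median was 0.03. CD274, which encodes the immune checkpoint ligand PD-L1, had 0.26 FPKM in control cells and 3.73 FPKM in knockdown cells (1.90). NLRC5, the activator of class I antigen presentation genes, had 0.60 and 3.92 FPKM (1.62), and SLFN5 had 5.58 and 18.5 FPKM (1.57). CD274 and NLRC5 reached 1 FPKM only in the knockdown library and so had to lie above 0. Of all 528 genes that reached it only there, 33.9% were higher by 2-fold. The chemokine genes CXCL9, CXCL10 and CXCL11 were listed at 0 in both libraries, together with EPSTI1, RTP4, GBP4, GBP5 and APOBEC3G.

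**Figure D4:**
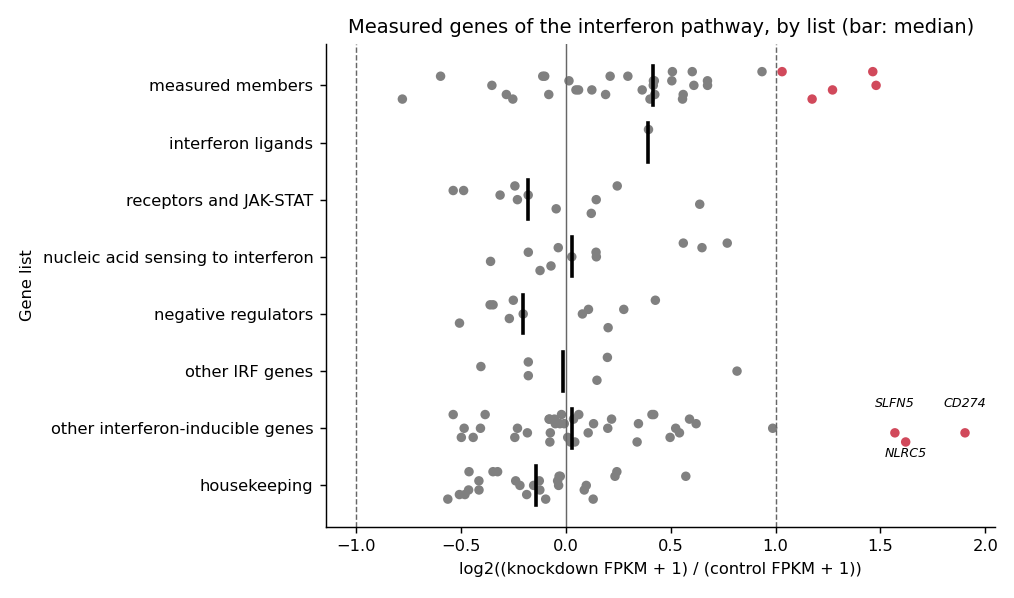
Log2 difference, knockdown over control, of each measured gene of the 45 members, of 6 other pathway lists and of housekeeping genes. Bars mark medians and dashed lines 2-fold. The median of the members is 0.42 and those of the lists with more than 1 measured gene lie between -0.20 and 0.03.

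For reference, the 26 housekeeping genes had a median of -0.14 with none past 2-fold (-0.15 without B2M, which is itself interferon-inducible). Of 17 marker genes of blood and immune cells, 10 were at 0 in both libraries, among them CLEC4C and LILRA4, which mark plasmacytoid dendritic cells, CD3D, CD3E, MS4A1 and LYZ, and PTPRC was at 0 and 0.05 FPKM. Their summed level was 10.4 FPKM in control cells and 35.4 FPKM in knockdown cells, and CD68, at 6.90 and 25.8 FPKM (1.76), held most of it. The 3 measured ones all lay above 0, and 2 of them were higher by 2-fold, beside 4.96% of all measured genes. These were CD68 and ITGAX, the latter at 0.63 and 4.23 FPKM (1.68), while CD14 had 2.16 and 4.32 FPKM (0.75). Because ITGAX reached 1 FPKM only in the knockdown library, it had to lie above 0. Of 7 epithelial markers, all measured, 2 were higher and 1 was lower by 2-fold, beside 4.96% and 2.25% of all measured genes. CLDN4 went from 0.57 to 22.3 FPKM (3.89) and KRT19 from 29.6 to 64.9 FPKM (1.11), whereas KRT18 went from 1853 to 912 FPKM (-1.02). CLDN4 too reached 1 FPKM only in the knockdown library and so had to lie above 0. KRT8 had 1646 and 888 FPKM (-0.89), KRT7 had 1880 and 2446 FPKM (0.38), CDH1 had 7.70 and 6.54 FPKM (-0.21) and EPCAM had 2.74 and 2.75 FPKM (0.01). Summed fibroblast markers were at 8.64 and 36.4 FPKM over 8 genes, carried by THY1 and COL1A1, with DCN listed at 0 in both. Endothelial markers were at 3.04 and 18.9 FPKM over 6 genes, carried by ESAM, with VWF and KDR listed at 0. The part of these markers in the differences of the interferon-stimulated genes was not tested.

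**Figure D5:**
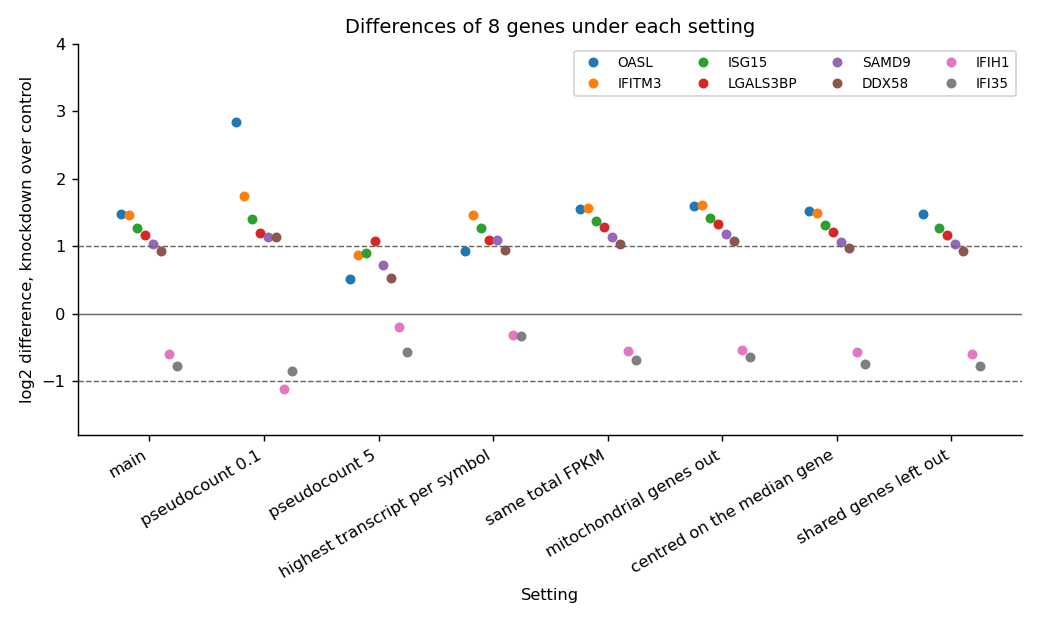
Log2 difference, knockdown over control, of the 5 higher members, DDX58, IFIH1 and IFI35 under the reported setting and 7 alternatives, with dashed lines at 2-fold. OASL runs from 0.52 to 2.84 between the pseudocounts of 5 and 0.1, and LGALS3BP stays above 1 in each setting shown.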

How the data were processed

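RNA was sequenced in A549 libraries, 1 per group. Per the labels' protocols, RNA came from Trizol extraction and libraries from an Illumina TruSeq kit. The values are FPKM that the authors deposited per transcript. CASAVA 1.8.2, TopHat and Cufflinks with build hg38 stand in the submitters' processing notes, but the sources used here do not give their roles, the annotation, the strand setting or filters. Total counts were not given, so depth is unknown and no counting interval is printed.

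Transcripts were summed per symbol, and the pseudocount (1), minimum (1 FPKM) and 2-fold threshold are as described above (Python 3.11.15, pandas 2.3.3, numpy 2.4.6). The calling step was checked on simulated data with little noise, in genes well above the minimum and with changes well past 2-fold. That check does not bear on members near the minimum or near the threshold. GENCODE release 29, of build hg38, gave positions and exon overlaps and held 99.5% of the 79989 transcripts. For the members only, shared sequence was counted as 50-base stretches found in transcripts of another gene. Values of 3 H1299 columns were not used because their names match no label, so the planned H1299 differences were not computed.

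The members and gene lists were chosen with earlier results of these data known. Named with values were every member past 2-fold, the 10 most abundant, the 3 highest and 3 lowest differences, those beside the minimum, and a fixed set (ISG15, MX1, IFIT1, IRF1, IRF7, IRF9, STAT2, DDX58). Pathway genes were named when past 2-fold or in a fixed set, and remaining genes named above were chosen after their values were seen. Results on some withheld items are not reported here.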

Additional observations from a re-analysis of the deposited data

How the results depend on the processing

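With 1 library per group there is no replicate to leave out, and no depth from which to judge counting error, so the values of genes near 0 (OASL, GBP1, GBP2 and MX1 among them) are the least certain. The pseudocount changed the number of 2-fold members most. With a pseudocount of 0.1, 8 members were higher and 1 was lower, beside 985 genes higher and 418 lower of 12230. With 5, 1 member was higher (LGALS3BP), the members' median was 0.17, and 223 genes were higher and 137 lower. Rescaling to the same total moved the median of all genes by 0.10 and leaving out mitochondrial genes by 0.15. With mitochondrial genes left out, 180 genes were lower and 82.3% of the 2-fold genes were higher, beside 68.8% in the reported setting. Relative to all genes, the members' median lay 0.45 higher as reported, 0.43 after rescaling and 0.42 with mitochondrial genes left out. It lay 0.57 higher with a pseudocount of 0.1, 0.20 with a pseudocount of 5 and 0.33 without genes that share exons or sequence. In this last setting, shared sequence was judged for the members only. The other genes were left out only for exons shared on the same strand. Between 4 and 6 members were higher, and none lower, under the 7 alternatives other than the pseudocount. Leaving out the 10 members that share exons or near-identical sequence gave 4 higher of 27 (14.8%), beside 5.07% of all genes kept. With the highest transcript alone, OAS1 (0.028), IFIT3 (-0.014), ISG20 (0.28), HERC6 (-0.20) and EIF2AK2 (0.038) turned direction. ISG20 (0.0079) and EIF2AK2 (0.0053) did so after rescaling, and OAS1 (0.045), ISG20 (0.054) and EIF2AK2 (0.059) with mitochondrial genes left out. The share of members with the response element core was also 64.7% when a further A was required. The cause of these shifts was not tested.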
